A study of Hordeum vulgare with 12 samples.

Results

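The 6 libraries described here are the stem bases of AtCKX1 barley at 10DAG and at 1DAG (days after germination), 3 libraries at each age, chosen by their sample labels from the 12 libraries of the series. AtCKX1 plants are labelled as an AtCKX1-overexpressing line, and the series description states that such lines hold less cytokinin. They were sampled at 10DAG and at 1DAG, and the other 6 libraries are the wild-type cv. Golden Promise (GP) at the same ages. Both lines entered 1 fit of 12 libraries, so the standard errors, adjusted p and calls of AtCKX1 rest in part on the GP libraries. GP values themselves are given where the change with age is set beside that of AtCKX1 and where the libraries are described. All 12 libraries are whole stem base (crown) segments, and no chemical treatment was applied in any group. The study describes its seedlings for cv. GP only: the ungerminated grains were kept cold and dark on wet paper, the 1DAG seedlings were taken from that paper, and the 10DAG seedlings had moved to nutrient solution, with 5 seedlings pooled in each sample. Segments were also longer at 10DAG by the study's methods, whereas the labels give 2 mm at both ages. Age, culture medium and segment length therefore cannot be told apart. The promoter driving AtCKX1, the number of independent lines and the handling of the AtCKX1 seedlings are not given in the sources used here.

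Cytokinins are plant hormones that promote cell division in the shoot, and cytokinin oxidases/dehydrogenases (CKX) break them down irreversibly. In cereals the stem base is where crown roots, the adventitious roots that form most of the adult root system, start as primordia and emerge. Auxin promotes the start of crown roots, cytokinin acts with and against it, and ethylene triggers, in rice, the death of epidermal cells that cover an emerging root.

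Reads assigned to genes numbered 38072347 to 48117821 per library (median 43236413) at 10DAG, against 42364228 to 47683587 (median 42595338) at 1DAG. Reads that aligned to several places made up 7.02% to 7.39% of each 10DAG library and 8.76% to 9.18% of each 1DAG library and were not counted, so genes with near-identical copies are measured in part. The AtCKX1 transgene, counted under its Arabidopsis identifier AT2G41510, had 42, 7 and 12 reads in replicates 1, 2 and 3 at 10DAG, against 16, 11 and 18 reads at 1DAG. It had 0 reads in each of the 6 GP libraries, which allows up to 3 reads per library. Its libraries overlapped between the ages, with a log2 fold change of 0.41 ± 0.72 (SE) and an adjusted p of 0.659, and without 10DAG replicate 1 the estimate was -0.66. A principal component separated the ages with 64.1% of the variance, and on the next one, with 16% of it, GP 1DAG replicate 1 and GP 10DAG replicate 2 stood apart from the rest. None of the 6 AtCKX1 libraries stood apart in this way. The same component also separated the lines, with the 6 AtCKX1 libraries at 15.4 to 44.4 and the 6 GP libraries at -107.7 to 2.1. The cause of this separation was not tested.

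Expression changed in a large share of the genes between the ages of the AtCKX1 stem base. Of 20212 genes tested, 3196 (15.8%) rose and 2468 (12.2%) fell by 10DAG, so that 28.0% were called. Levels are given in CPM, the reads of a gene relative to the assigned reads of its library after TMM scaling between libraries. A gene was called when its adjusted p in edgeR's quasi-likelihood test was at most 0.05 and its log2 fold change was at least 1 in size. Of the higher genes, 1450 rose by at least 2 and 148 by at least 5 on the log2 scale, whereas of the lower genes 554 fell by at least 2 and 18 by at least 5. The genes called higher held 15% to 17.4% of all assigned reads in the 10DAG libraries, against 4.31% to 4.68% in the 1DAG libraries. The genes called lower held 4.66% to 5.38% of the reads in the 10DAG libraries, against 13.7% to 15% in the 1DAG libraries. The median log2 fold change of all genes tested was -0.01. Fewer cells of a type and less RNA per cell cannot be told apart in such whole-tissue libraries.

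**Figure D1:**
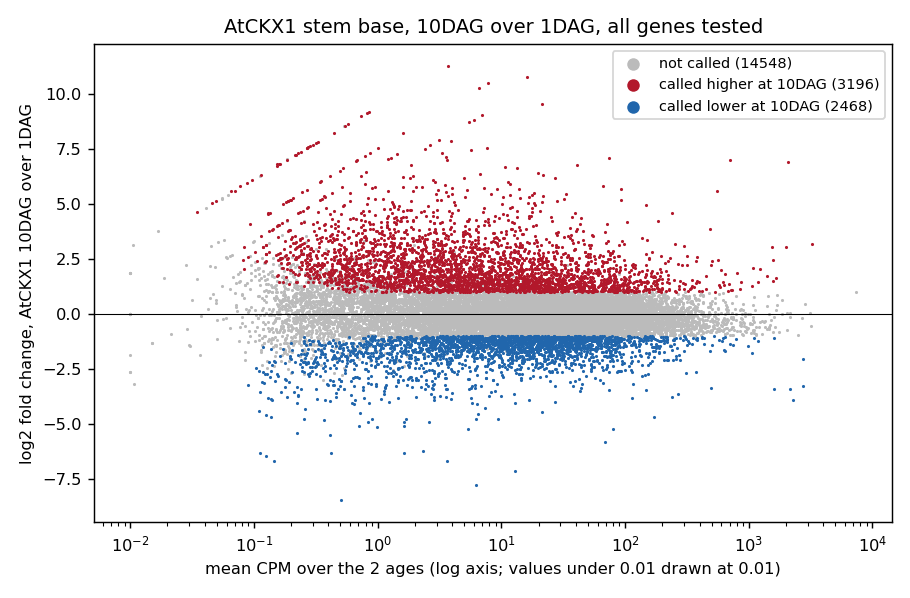
Each point is 1 of the 20212 genes tested, by its mean level in CPM (horizontal log axis) and its log2 fold change in AtCKX1 10DAG over 1DAG (vertical axis); red and blue points were called higher (3196) and lower (2468) at 10DAG. The points reach farther above 0 than below it, and the straight rows of red points at low CPM are genes with 0 or few reads at 1DAG, whose fitted fold depends on the small count added before taking logs.

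Libraries of the 2 ages did not overlap in 69.8% of the genes tested, with all 10DAG libraries above in 34.6% and all below in 35.2%. Among the 5664 genes called, 5599 did not overlap. The calls held in each of the 6 fits that left out 1 AtCKX1 library for 2367 of the higher and 1977 of the lower genes. AtCKX1 10DAG replicate 2 lay nearest to the younger stem bases: it was the lowest of the 3 10DAG libraries in 55.3% of the genes called higher and the highest in 64.1% of the genes called lower. A test that sets the fold limit inside the test itself (glmTreat) called 1545 genes (7.64%) higher and 1043 (5.16%) lower. In a fit of the 6 AtCKX1 libraries alone, 3067 of the genes called higher and 2396 of those called lower were called in the same direction.

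The genes for which the study designed quantitative PCR primers cover auxin, cytokinin, light perception and chromatin. Of these 10 genes, 4 rose, 1 fell and 5 were not called, against 15.8% higher and 12.2% lower among all genes. None of the 10 overlapped between the ages, against 69.8% of all genes without overlap. The estimate was positive in 9 of them, against 49.5% of all genes. The study used its primers to check differential expression of genes of interest in cv. GP. The 10 are therefore no random draw from all genes, and age effects of AtCKX1 and GP correlated across genes (r = 0.869). These shares do not show that the 10 genes stand out in AtCKX1. The primer pairs of the 4 genes with the widest changes are printed because they mark the stretch of each transcript that the study's own assay amplified (5′ to 3′, in lower case throughout).
PILS forward: cgacggagtacaatggaagg
PILS reverse: catactgacactctccaagcc
RRB9 forward: tcggagtttctgccaatctg
RRB9 reverse: catcaagttttgtcacgccg
SCR-like1 forward: gtgaacatcttggcttgtgaag
SCR-like1 reverse: tcattctcgccctccatttc
CRL1.1 forward: ggagacaacaacgatcaggtc
CRL1.1 reverse: acttgcgacgcagaaacttg

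PILS (MLOC_24846) encodes a PIN-like carrier, a family that retains auxin inside the cell in Arabidopsis. It had 6.82, 8.68 and 7.26 CPM in 10DAG replicates 1, 2 and 3, against 2, 1.47 and 1.74 CPM in 1DAG replicates 1, 2 and 3. The log2 fold change was 2.11 ± 0.24 (SE, adjusted p = 3.3e-05), and the lowest 10DAG library was far above the highest at 1DAG. RRB9 (MLOC_61880), a B-type response regulator of the class that activates genes in answer to cytokinin, had 29.3, 29.6 and 30.2 CPM at 10DAG, against 9.61, 11.1 and 9.93 CPM at 1DAG. It rose by 1.53 ± 0.12 (SE, adjusted p = 4.15e-06) on the log2 scale, and its 10DAG libraries were close to each other. SCR-like1 (MLOC_6971), a transcription factor of the GRAS family, had 200, 195 and 196 CPM at 10DAG, against 67.2, 70.2 and 74.7 CPM at 1DAG. Its rise was 1.47 ± 0.16 (SE, adjusted p = 2.25e-05), again without overlap. IRL1 (MLOC_70768), a hydrolase that frees auxin from its amino acid conjugates, had 16.9, 16.2 and 17.6 CPM at 10DAG, against 8.06, 6.39 and 8.48 CPM at 1DAG, a rise of 1.13 ± 0.18 (SE, adjusted p = 0.000305).

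CRL1.1 (MLOC_10784) was the gene of the primer list that fell. It encodes a protein of the LBD family, whose rice member CRL1 and maize member RTCS are needed to start crown roots. Its level was 4.07, 5.55 and 5 CPM at 10DAG, against 10.7, 13.8 and 9.3 CPM at 1DAG. The log2 fold change was -1.22 ± 0.20 (SE, adjusted p = 0.000404), and no 10DAG library reached the lowest 1DAG library.

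The other 5 genes with primers stayed under the fold limit, although each had an adjusted p below the limit of 0.05. ARGO (MLOC_4898), an Argonaute of small-RNA silencing, had 104, 97 and 123 CPM at 10DAG, against 59, 43.2 and 61.5 CPM at 1DAG. Its log2 fold change of 0.97 ± 0.16 (SE, adjusted p = 0.000419) lay just under the limit and passed it without 1DAG replicate 1 (1.01), without 1DAG replicate 3 (1.06) and without 10DAG replicate 2 (1.02). AuxIAA20 (MLOC_73144), described as auxin response factor 20, differed by 0.55 ± 0.16 (adjusted p = 0.0106). The blue-light receptors CRY1b (MLOC_64083) and CRY2 (MLOC_8289) differed by 0.67 ± 0.13 and 0.63 ± 0.16 on the log2 scale. HADC (MLOC_71091), a histone deacetylase, which removes acetyl groups from chromatin, differed by 0.61 ± 0.10 (adjusted p = 0.000322).

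**Figure D2:**
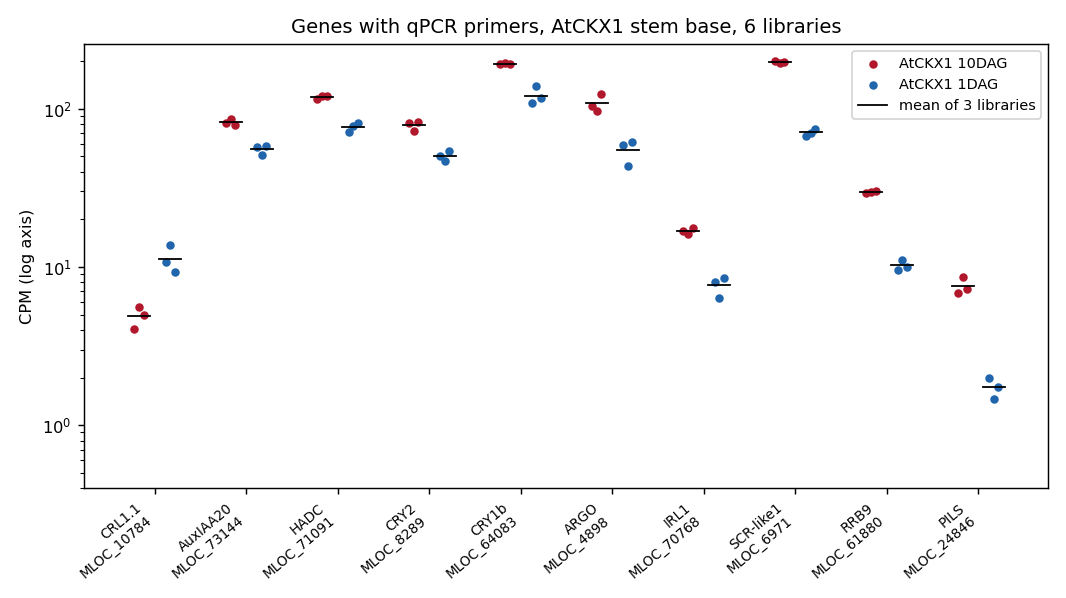
Levels in CPM (log axis) of the 10 genes with primers, ordered by log2 fold change, in the 3 AtCKX1 10DAG libraries (red, left of each pair) and the 3 AtCKX1 1DAG libraries (blue), with the mean as a bar. CRL1.1 is the gene whose 10DAG libraries lie below its 1DAG libraries, and PILS shows the widest gap; CPM is not corrected for gene length, so heights are not comparable between genes.

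The lists of hormone, transport and defence genes that follow were drawn from the readable part of a supplementary table of genes that the study called higher in cv. GP at 10DAG. The table rests on GP libraries, so its genes had risen in GP and members of the same families that fell there are not in it. Of the 1342 readable genes, 1334 were tested in AtCKX1, where 1023 (76.7%) were higher and 1 was lower, against 15.8% higher and 12.2% lower among all genes tested. A list's count of higher genes is therefore to be read against 76.7%. In the fit of the AtCKX1 libraries alone, 1025 of them were higher, against 16.8% of the genes tested there. Their median log2 fold change was 1.5 in AtCKX1 and 1.6 in GP. All 10DAG libraries lay above all 1DAG libraries in 1227 of them, against 34.6% of all genes.

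Of 11 cytokinin genes tested, 9 rose (81.8%, against 76.7% of the whole table), with a median log2 fold change of 2.43. In all 11 the 10DAG libraries lay above the 1DAG libraries, as in 1227 of the 1334 genes of the whole table. Each of the 4 CKX genes of the list, barley's own cytokinin-degrading enzymes, was among those that rose. MLOC_11021 (cytokinin dehydrogenase 2) had 10.1, 19.5 and 15 CPM at 10DAG, against 3.92, 2.23 and 1.59 CPM at 1DAG, a rise of 2.51 ± 0.51 (SE, adjusted p = 0.00169). MLOC_58639 (cytokinin oxidase/dehydrogenase 1) had 41.1, 3.53 and 17.6 CPM at 10DAG, against 2.76, 2.53 and 2.2 CPM at 1DAG. Its rise of 3.04 ± 0.69 (SE, adjusted p = 0.00327) became 2.04 without 10DAG replicate 1, the highest library, while replicate 2 lay close to the 1DAG libraries. MLOC_16499 (cytokinin dehydrogenase 4b) had 2.96, 2.44 and 2.21 CPM at 10DAG, against 1.28, 0.455 and 0.725 CPM at 1DAG (log2 fold change 1.61 ± 0.46, adjusted p = 0.0115). MLOC_81291 was low at 0.339, 0.424 and 0.547 CPM at 10DAG, against 0, 0.0216 and 0.169 CPM at 1DAG. Its call (log2 fold change 2.74 ± 0.91, adjusted p = 0.0246) was lost without 1DAG replicate 1, 1DAG replicate 2, 10DAG replicate 2 or 10DAG replicate 3, with adjusted p = 0.0783, 0.0986, 0.0505 and 0.0686. The estimate became 4.96 without 1DAG replicate 3, the library that held most of the few reads at that age.

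Hv_CKX4, a CKX gene that the count tables name outright, had 48, 57.1 and 44.4 CPM at 10DAG, against 24.8, 23.9 and 28.6 CPM at 1DAG. Its log2 fold change of 0.94 ± 0.23 (adjusted p = 0.00437) fell short of the fold limit and reached 1.02 without 1DAG replicate 3 and 1.01 without 10DAG replicate 3. Hv_CKX10, Hv_IPT2 and Hv_IPT5 had 0 reads in all 6 libraries; IPT enzymes make cytokinin. Hv_IPT7 had 4, 1 and 3 reads at 10DAG and 0 at 1DAG, too few to be tested.

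The signalling genes of the cytokinin list that rose included activating and repressing regulators. Regulators that fell in GP are not in the list, so it cannot show which side changed more. MLOC_36886, an A-type response regulator of the class that damps the cytokinin response, had 55.2, 50.4 and 55.5 CPM at 10DAG, against 10.9, 9.68 and 16.4 CPM at 1DAG. The log2 fold change was 2.11 ± 0.26 (SE, adjusted p = 5.76e-05). Among B-type regulators, MLOC_12999 had 0 reads at 1DAG and was at least 15.3-fold higher at 10DAG, where 3 reads over the group stand in for 0, with 0.203, 0.283 and 0.625 CPM at 10DAG. MLOC_23250, also B-type, differed by 0.55 ± 0.15 (adjusted p = 0.0101), under the fold limit. MLOC_6567, a phosphoribohydrolase of the kind that releases active cytokinin, had 2.24, 2.28 and 1.8 CPM at 10DAG, against 0.464, 0.325 and 0.362 CPM at 1DAG (log2 fold change 2.43 ± 0.53, adjusted p = 0.0025). Of the glycosyltransferases that store cytokinin as conjugates, MLOC_79717 rose by 1.79 ± 0.48 (adjusted p = 0.00862). MLOC_1013 was not called (adjusted p = 0.0626), with 1.33 CPM in 10DAG replicate 3 and at most 0.0808 CPM in the other 10DAG libraries.

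**Figure D3:**
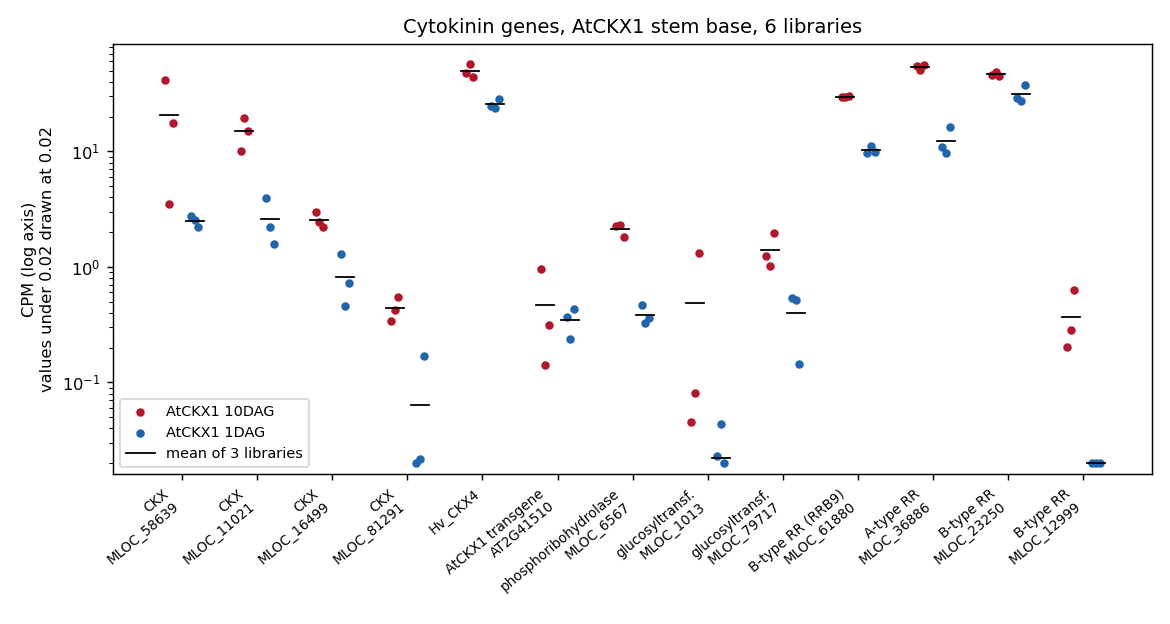
Levels in CPM (log axis) of the 11 cytokinin genes of the list, Hv_CKX4 and the AtCKX1 transgene in the 3 AtCKX1 10DAG libraries (red, left of each pair) and the 3 AtCKX1 1DAG libraries (blue), with means as bars and values under 0.02 drawn at 0.02. The 10DAG points lie above the 1DAG points in every gene but the transgene, and MLOC_58639 and MLOC_1013 show the widest spread at 10DAG.

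Of 8 auxin genes tested, 7 rose (87.5%, against 76.7% of the whole table), with a median log2 fold change of 1.87. The YUCCA-type monooxygenase MLOC_46161, of the class that makes auxin, had 4.74, 4.69 and 5.39 CPM at 10DAG, against 1.14, 0.649 and 0.749 CPM at 1DAG, a rise of 2.53 ± 0.37 (SE, adjusted p = 0.000177). Genes that remove free auxin rose as well: the 3 GH3 amido synthetases MLOC_64672, MLOC_5534 and MLOC_73787 rose by 3.14 ± 0.52, 2.54 ± 0.55 and 1.39 ± 0.28, and the auxin dioxygenase MLOC_7933 by 1.23 ± 0.33. MLOC_64672 had 31.4, 12 and 32.7 CPM at 10DAG, against 3.76, 1.73 and 3.07 CPM at 1DAG. In both ages replicate 2 was its lowest library. The Aux/IAA repressor MLOC_51312 was called at 1.62 ± 0.60 (adjusted p = 0.0394). Its adjusted p was 0.051 to 0.145 in the 6 fits that left out 1 AtCKX1 library, so the call was lost in each. Those fits also hold GP libraries, and in edgeR's fit of the AtCKX1 libraries alone its adjusted p was 0.0037.

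Of 4 auxin transport genes, 3 rose. Besides PILS, the influx carriers MLOC_81185 (transporter-like protein 3) and MLOC_54960 (transporter-like protein 1) rose by 1.23 ± 0.29 (adjusted p = 0.00395) and 1.04 ± 0.28 (adjusted p = 0.00768). MLOC_54960 fell under the fold limit without 1DAG replicate 2 (0.88) and without 10DAG replicate 3 (0.92). The PIN efflux carrier MLOC_60446 had 0.542, 0.242 and 0.156 CPM at 10DAG, against 0.209, 0.238 and 0.338 CPM at 1DAG. Its ages overlapped in AtCKX1 (0.25 ± 0.52, adjusted p = 0.701). In GP it had 17, 6 and 14 reads at 10DAG, against 1, 2 and 1 reads at 1DAG, and rose by 3.07 on the log2 scale. The gene is on the list because the study called it higher in GP. Its difference of the age effects was -2.82 ± 0.85 and was not called (adjusted p = 0.328).

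Of 6 ethylene genes, 5 rose (83.3%, against 76.7% of the whole table), and the list covers synthesis and signalling. The ACC synthase MLOC_5973, the enzyme that usually limits ethylene synthesis, had 11.8, 8.84 and 11.2 CPM at 10DAG, against 4.18, 2.71 and 3.99 CPM at 1DAG (log2 fold change 1.54 ± 0.39, adjusted p = 0.00623). The ACC oxidase MLOC_43526, which makes ethylene itself, was called at 1.64 ± 0.51 (adjusted p = 0.0185). It had 83.9, 33.6 and 84.6 CPM at 10DAG, against 33.1, 9.93 and 21 CPM at 1DAG, and its call was lost without 1DAG replicate 2, 1DAG replicate 3, 10DAG replicate 1 or 10DAG replicate 3 (adjusted p = 0.066, 0.0554, 0.0625 and 0.0608). The receptor MLOC_64196 rose by 1.63 ± 0.18 (adjusted p = 3.35e-05), and MLOC_10385, of the ARGOS class that lowers ethylene sensitivity, rose by 2.05 ± 0.23 (adjusted p = 3.18e-05). MLOC_75776, of the EIN3 class of transcription factors, had 32 reads over the 10DAG libraries and 1 read over the 1DAG libraries, a ratio of 31.3 after scaling with a 95% counting interval of 5.23 to 1280. The F-box gene MLOC_28234, of the EBF class that removes EIN3, had 124, 127 and 113 CPM at 10DAG, against 102, 73.6 and 106 CPM at 1DAG, and was not called (0.35 ± 0.18, adjusted p = 0.113). Of 8 ethylene-responsive factors, 7 rose, led by MLOC_10878 with 10.2, 8.22 and 12.8 CPM at 10DAG, against 0.697, 0.303 and 0.532 CPM at 1DAG (4.33 ± 0.36, adjusted p = 5.15e-06).

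All 6 genes of the cell death list rose, within a narrow range of 1.12 to 1.47 on the log2 scale. MLOC_17904, a LITAF-domain protein that interacts with the cell death regulator LSD1 in Arabidopsis, had 46.2, 41.2 and 49.7 CPM at 10DAG, against 17.4, 15 and 16.7 CPM at 1DAG. It rose by 1.47 ± 0.12 (SE, adjusted p = 4.21e-06). The vacuolar processing enzyme MLOC_59407, a protease of vacuolar cell death, rose by 1.39 ± 0.20 and the DCD-domain gene MLOC_38269 by 1.29 ± 0.19. Metacaspase 1 (MLOC_57717) rose by 1.20 ± 0.32 (adjusted p = 0.00815). The suppressor BAX inhibitor 1 (MLOC_66886) rose by 1.15 ± 0.17 and metacaspase 3 (MLOC_70114) by 1.12 ± 0.19. Without 1DAG replicate 2 their log2 fold changes were 0.99 and 0.94, and without 10DAG replicate 3 that of MLOC_70114 was 0.99, all under the fold limit. The list thus holds both promoters and suppressors of cell death.

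Of 6 abscisic acid genes, 5 rose (83.3%, against 76.7% of the whole table), with a median log2 fold change of 2.35. The 9-cis-epoxycarotenoid dioxygenases MLOC_43893 and MLOC_18300, which carry out the committed step of synthesis, rose by 2.89 ± 0.63 (adjusted p = 0.00244) and 1.92 ± 0.50 (adjusted p = 0.00702). The hydroxylase MLOC_4786, which breaks the hormone down, had 76, 11 and 84.4 CPM at 10DAG, against 9.17, 6.77 and 8.84 CPM at 1DAG (2.78 ± 0.55, adjusted p = 0.00146). Replicate 2 lay near the 1DAG libraries in this gene, as it did in MLOC_58639. A further hydroxylase, MLOC_69371, was called at 2.85 ± 0.91 and lost its call without 1DAG replicate 1 (adjusted p = 0.0745), 1DAG replicate 3 (0.0565) or 10DAG replicate 3 (0.166), where the estimate was 1.42. Of the protein phosphatases 2C that hold back the response, MLOC_19687 rose by 1.57 ± 0.18 and MLOC_52176 differed by 0.87 ± 0.15, under the fold limit.

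Of 9 gibberellin genes, 7 rose (77.8%, against 76.7% of the whole table). Only 5 were called in each of the 6 fits without 1 AtCKX1 library, against 910 to 997 of the 1334 genes of the whole table. The gibberellin 2-oxidase MLOC_38462, of the class that inactivates the hormone, had 74.5, 41 and 69.1 CPM at 10DAG, against 11.5, 9.44 and 10.3 CPM at 1DAG, a rise of 2.55 ± 0.38 (SE, adjusted p = 0.000216). The P450 MLOC_58793, annotated as a gibberellin-modifying enzyme, rose by 2.64 ± 0.36 (adjusted p = 0.000114). A further 2-oxidase, MLOC_72016, was called at 2.61 ± 0.79 (adjusted p = 0.0158) and lost its call without 1DAG replicate 1, 1DAG replicate 2 or 10DAG replicate 2 (adjusted p = 0.0602, 0.069 and 0.0747). Of 10 jasmonic acid genes, 8 rose, but 5 were called without 1DAG replicate 2 and 4 without 10DAG replicate 1. The 13-lipoxygenase MLOC_60765, of the class that begins jasmonate synthesis, had 9.51, 7.17 and 23.2 CPM at 10DAG and 1 read in all over the 1DAG libraries, a ratio of 1630 with a 95% counting interval of 293 to 64500. MLOC_2968, a P450 that oxidises the active jasmonate conjugate, rose by 3.44 ± 0.44 (adjusted p = 8.04e-05), and a further 13-lipoxygenase, MLOC_67243, by 3.05 ± 0.48 (adjusted p = 0.000311).

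Of 6 salicylic acid and strigolactone genes, 4 rose. The salicylic acid 3-hydroxylase MLOC_44478 had 26.5, 26.1 and 50.4 CPM at 10DAG, against 1.93, 1.21 and 0.459 CPM at 1DAG (4.82 ± 0.61, adjusted p = 7.48e-05), and the receptor gene MLOC_51588, of the NPR3/4 class, rose by 1.45 ± 0.16. The 3 brassinosteroid genes all rose, by 1.11 to 2.20. Of 16 signalling peptide genes, 14 rose. The CLE precursor MLOC_64448 had 0 reads at 1DAG and was at least 63-fold higher at 10DAG on the same floor of 3 reads. Another CLE precursor, MLOC_58776, had 7.55, 7.07 and 6.95 CPM at 10DAG, against 0.0232, 0.0866 and 0.0483 CPM at 1DAG (6.99 ± 0.65, adjusted p = 1.02e-05). CLE peptides are short secreted signals that set the size of meristems.

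**Figure D4:**
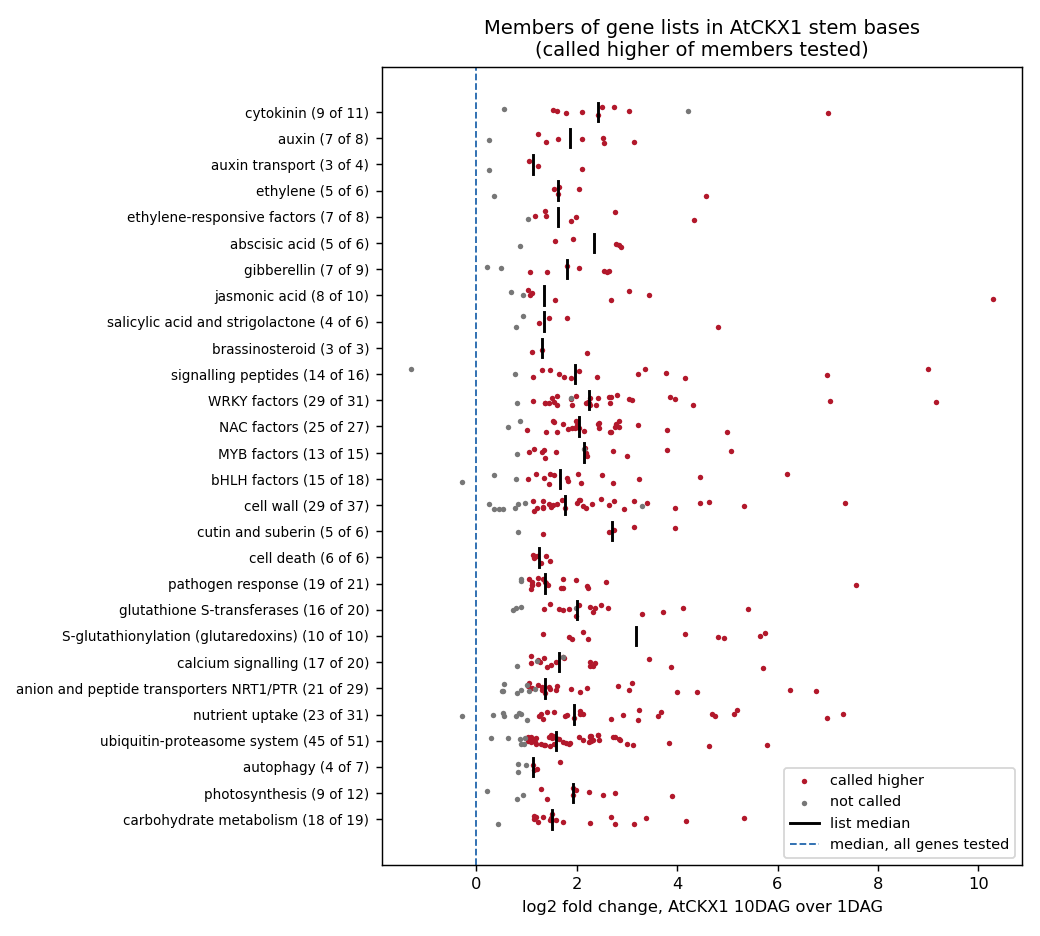
Each point is the log2 fold change in AtCKX1 10DAG over 1DAG of 1 list member that was tested (red, called higher; grey, not called), with the list median as a black bar and the median of all genes tested as a dashed line; brackets give members called higher of members tested. Every list median lies to the right of the dashed line at -0.01, the lists having been drawn from genes that were higher in GP, and the fitted value of a member with 3 or fewer reads at 1DAG depends on the small count added before taking logs.

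Transcription factors formed a large group, with 171 of 202 genes of transcriptional regulation higher (84.7%, against 76.7% of the whole table). Of 31 WRKY factors, a family known for defence and senescence, 29 rose. WRKY 31 (MLOC_5971) had 11.3, 12.8 and 20.3 CPM at 10DAG, against 0.975, 0.866 and 0.362 CPM at 1DAG (4.31 ± 0.63, adjusted p = 0.000177). WRKY 18 (MLOC_11088) had 0 reads at 1DAG and was at least 68.9-fold higher at 10DAG. Of 27 NAC factors, 25 rose; MLOC_4747 had 23.2, 27.3 and 26.1 CPM at 10DAG, against 4.6, 1.58 and 1.93 CPM at 1DAG (3.22 ± 0.44, adjusted p = 0.000115, and 3.83 without 1DAG replicate 1). Of 15 MYB factors, 13 rose, and of 18 bHLH factors, 15 rose. The bHLH gene MLOC_44850 rose by 6.19 ± 0.45 (adjusted p = 2.53e-06). In contrast the bHLH gene MLOC_62844 had 92.8, 1.31 and 2.58 CPM at 10DAG, against 1.51, 1.15 and 1.67 CPM at 1DAG: its ages overlapped, and its call at 4.46 ± 1.44 (adjusted p = 0.0212) was lost without 10DAG replicate 1, where the estimate was 0.39 (adjusted p = 0.725), and without any 1DAG replicate (adjusted p = 0.0621 to 0.0727).

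Of 37 cell wall genes, 29 rose (78.4%, against 76.7% of the whole table), and among them 8 of 9 pectin genes, which loosen or remodel the glue between cells. The pectinesterase MLOC_65390 had 3.82, 5.49 and 3.65 CPM at 10DAG, against 0.232, 0.13 and 0.145 CPM at 1DAG (4.64 ± 0.65, adjusted p = 0.000148). The polygalacturonase MLOC_6444 had 231 reads over the 10DAG libraries and 1 over the 1DAG libraries. Of the expansins, wall-loosening proteins, MLOC_53864 rose by 1.14 ± 0.18 (adjusted p = 0.000262) and MLOC_6637 overlapped between the ages (0.54 ± 0.49). Of 6 cutin and suberin genes, 5 rose; the wax ester synthase gene MLOC_8076 rose by 2.75 ± 0.33 (adjusted p = 5.13e-05). The chitinases MLOC_65311 and MLOC_7366, named after their values were seen, were not called (0.89 ± 0.23 and 0.26 ± 0.48).

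Of 214 solute transport genes, 153 (71.5%) rose, below the 76.7% of the whole table. Of 29 NRT1/PTR genes, carriers of nitrate, peptides and hormones, 21 rose, and MLOC_57296 had 85.5, 61.9 and 94.1 CPM at 10DAG, against 0.65, 0.736 and 0.822 CPM at 1DAG (6.76 ± 0.43, adjusted p = 1.51e-06). Of 31 nutrient uptake genes 23 (74.2%) rose, with a summed level of 2230 to 2800 CPM at 10DAG, against 1140 to 1430 CPM at 1DAG. The 12 listed photosynthesis genes summed to 1210 to 1320 CPM in the 10DAG libraries, against 191 to 224 CPM in the 1DAG libraries, and 9 of them (75%) rose. Photosynthesis genes that fell in GP are not in the list, so this sum is no measure of green tissue. Photosystem II 10 kDa polypeptide (MLOC_37052) alone had 933, 972 and 820 CPM at 10DAG, against 58.7, 85.4 and 37.7 CPM at 1DAG (3.89 ± 0.45, adjusted p = 4.16e-05). The MYB36 gene MLOC_56989, a regulator of the endodermal Casparian strip in Arabidopsis, had 0.633 to 0.963 CPM at 10DAG, against 0.238 to 0.279 CPM at 1DAG, and its call (1.6 ± 0.57, adjusted p = 0.0316) was lost in each fit without 1 AtCKX1 library but that without 10DAG replicate 1. The part of tissue makeup in the changes with age was not tested.

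Shares of higher genes in the lists of stress and protein turnover are to be read against 76.7% in the whole table. Several of these lists are short, and differences between lists were not tested. All 10 glutaredoxins rose; MLOC_55037 had 32.2, 41.7 and 34.4 CPM at 10DAG, against 0.627, 1.69 and 1.16 CPM at 1DAG (4.94 ± 0.37, adjusted p = 3.07e-06). Of 20 glutathione S-transferases, detoxifying enzymes, 16 rose; MLOC_30925 had 52.5, 29.5 and 78.9 CPM at 10DAG, against 2.9, 5.89 and 3.33 CPM at 1DAG. The NADPH oxidases, which make extracellular superoxide, rose in 4 of 4 genes, among them MLOC_5633 (2.78 ± 0.45, adjusted p = 0.000348). Of 21 pathogen response genes 19 rose, led by the receptor-like kinase MLOC_69543 with 11.4, 14.2 and 20.1 CPM at 10DAG, against 0.116, 0.0216 and 0.0966 CPM at 1DAG (7.57 ± 0.58, adjusted p = 3.24e-06). Of 153 protein phosphorylation genes 132 rose, of 51 ubiquitin-proteasome genes 45, of 51 proteolysis genes 39 (76.5%) and of 7 autophagy genes 4 (57.1%). The 3 listed metallothioneins, small metal-binding proteins, had 0.26 to 8.63 CPM at 10DAG, against 0 to 0.0929 CPM at 1DAG, which says nothing of metallothioneins outside the list. Carbohydrate metabolism had 18 of 19 genes higher and vesicle trafficking 19 of 23.

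Genes without a function in the sources used here were among those with the widest changes. MLOC_74463 had 4.63, 8.7 and 9.06 CPM at 10DAG and 0 reads at 1DAG, at least 321-fold higher. MLOC_27143 had 59.2, 22.8 and 45.3 CPM at 10DAG, against 0.0232, 0.0649 and 0.0725 CPM at 1DAG (9.54 ± 0.94, adjusted p = 1.38e-05). Among genes that fell, MLOC_44536 had 4.56, 1.92 and 6.3 CPM at 10DAG, against 131, 190 and 145 CPM at 1DAG (-5.21 ± 0.77, adjusted p = 0.000208). MLOC_76259 had 0.113, 0.303 and 0.104 CPM at 10DAG, against 16.1, 45.2 and 16.1 CPM at 1DAG (-7.16 ± 0.85, adjusted p = 4.92e-05; -7.88 without 10DAG replicate 2 and -6.50 without 1DAG replicate 2). MLOC_11636 had 0 reads at 10DAG and was at least 45.6-fold lower, although 1DAG replicate 1 held 0.139 CPM and the other 1DAG libraries 1.43 and 1.5 CPM. Of the genes called lower, only 2 have a description in these sources, CRL1.1 and MLOC_74149, so the functions of the falling genes are not described here.

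The change with age was then set beside that of GP, which asks whether the AtCKX1 line changes with age in the same way. Cytokinin levels of these samples are not given in the sources used here. Both ages of both lines entered 1 fit, and the difference of the 2 age effects was tested for each gene. It was called in 98 of 20212 genes (0.485%), 82 (0.406%) with a positive and 16 (0.0792%) with a negative difference. An unadjusted p under 0.05 was found in 1450 genes. If no gene differed, a share of about 0.05 of the 20212 genes would also fall under that limit. Of the 3196 genes higher in AtCKX1, 2510 were also higher in GP, which is 78.5% of the AtCKX1 and 79.9% of the GP list, and 12 were lower there. Of the 2468 genes lower in AtCKX1, 1901 were also lower in GP, 77% of the AtCKX1 and 69.7% of the GP list, and 3 were higher there. In GP, 15.5% of all genes tested were higher and 13.5% lower. A gene called in AtCKX1 and not in GP is not shown to differ: among such genes, the difference was called in 14 of 674 that were higher and 7 of 564 that were lower. Of 814 genes lower in GP and not called in AtCKX1, it was called in 37.

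The number of such genes depended on single libraries. It was 62, 58 and 34 without AtCKX1 1DAG replicate 1, 2 and 3. Without AtCKX1 10DAG replicate 1, 2 and 3 it was 70, 72 and 46. It was 40, 60 and 54 without GP 10DAG replicate 1, 2 and 3. Without GP 1DAG replicate 1, 2 and 3 it was larger than 98, at 123, 113 and 109. Without both GP libraries that stand apart it was 106, of which 81 were among the 98. DESeq2 called 293 genes, all 98 among them.

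**Figure D5:**
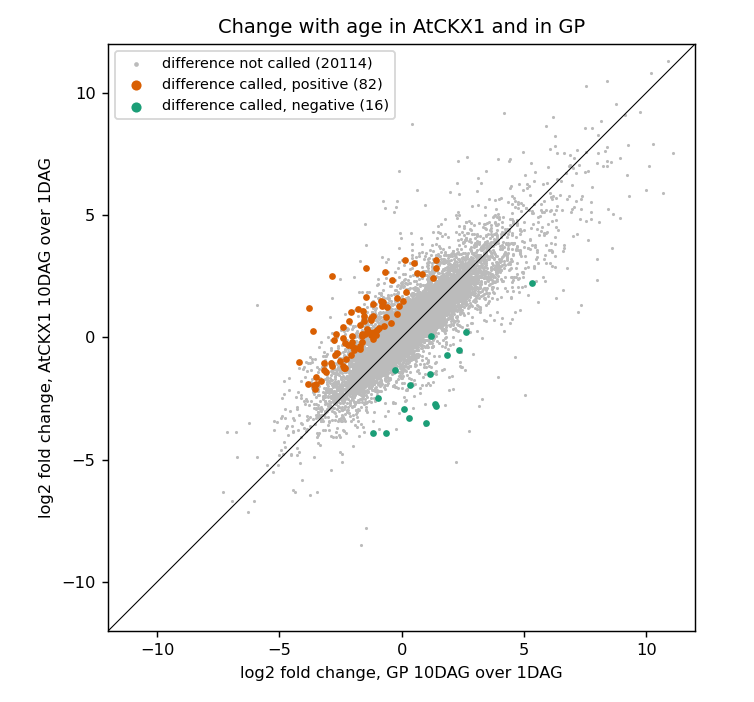
Each point is 1 gene by its log2 fold change at 10DAG over 1DAG in AtCKX1 (vertical axis) and in GP (horizontal axis), with the line of equal change; orange and green points are the 82 and 16 genes whose age effects differed, with a positive and a negative difference. Most points follow the line, and the orange points gather above it, mainly where the GP value is negative.

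The clock gene MLOC_14118, annotated as CIRCADIAN CLOCK ASSOCIATED 1, a morning regulator of the plant clock, was the only one of the 1023 listed genes that rose and had a called positive difference. It had 454, 555 and 361 CPM in AtCKX1 at 10DAG, against 43, 60.6 and 47.2 CPM in AtCKX1 at 1DAG. In GP it had 114, 122 and 102 CPM at 10DAG, against 37.8, 40.2 and 52.8 CPM at 1DAG. The rise was 3.17 ± 0.20 in AtCKX1 and 1.39 ± 0.19 in GP, a difference of 1.78 ± 0.27 (SE, adjusted p = 0.0146). The 1DAG libraries of the lines lay close together, and the 10DAG libraries did not overlap between the lines. This difference held in 10 of 12 fits without 1 library; without GP 10DAG replicate 1 and without AtCKX1 1DAG replicate 3 the adjusted p was 0.0539 and 0.0699. Without both GP libraries that stand apart the difference was 1.99 (adjusted p = 0.0205). Of the other listed clock genes, EARLY FLOWERING 3 (MLOC_75281) was called at 1.00 ± 0.11, at the fold limit, and fell under it in each fit without 1 AtCKX1 library but that without 1DAG replicate 1 (lowest 0.95). The pseudo response regulator MLOC_62596, named after its values were seen, overlapped between the ages (-0.01 ± 0.18). The hour of harvest is not given in the sources used here.

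A cellulose synthase-like gene, MLOC_74149, was the only listed gene that fell in AtCKX1. It had 1.78, 0.868 and 0.729 CPM in AtCKX1 at 10DAG, against 2.14, 3.31 and 4.01 CPM in AtCKX1 at 1DAG, whereas in GP it had 2.07, 2.35 and 2.24 CPM at 10DAG, against 0.907, 1.02 and 1.08 CPM at 1DAG. The log2 fold change was -1.49 ± 0.35 in AtCKX1 (adjusted p = 0.00396) and 1.17 ± 0.35 in GP (adjusted p = 0.015). No library overlapped between the ages in either line.

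No member of the cytokinin, auxin, ethylene, abscisic acid, gibberellin, jasmonic acid or cell death lists had a called difference of the age effects. The same held for the 10 genes with primers. Among all genes tested the difference was called in 98 of 20212 (0.485%). At that share, the absence of calls among so few genes is no result about them. The cytokinin gene MLOC_12999 had 0 reads at 1DAG in both lines, so its fitted difference of -1.39 depends on the small count added before taking logs. Among the other cytokinin genes of the list the differences ranged from -0.67 (MLOC_6567, adjusted p = 0.867) to 1.31 (MLOC_58639, adjusted p = 0.839). With 3 libraries in each group, the adjusted p of these differences does not show that the lines changed alike.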

How the data were processed

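RNA of stem bases was sequenced in 12 libraries, and the 6 AtCKX1 libraries are reported. The authors mapped reads (TopHat) on the cv. Morex assembly IBSC_v1, ran HTSeq 0.6.0 and deposited raw counts, without normalization, for 26073 identifiers. Rows that name no gene were removed: reads outside genes were 22.1% to 23.6% of the AtCKX1 libraries, and reads at several places 7.02% to 9.18%. The study does not describe the AtCKX1 libraries, and its text and labels differ on segment length, RNA amount and read type.

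Counts were tested in R 4.3.3 with edgeR 4.0.16 (filterByExpr, TMM, robust quasi-likelihood test, Benjamini-Hochberg adjustment over all genes) in 1 fit of 12 libraries with a mean per group. The limits for a call, 0.05 for the adjusted p and 1 for the size of the log2 fold change, are the study's. Standard errors are approximate, being derived from each fold change and its F value. CPM used library sizes scaled by TMM. Genes with 0 reads at an age are given as bounds against 3 reads over the group, and ratios of genes with 1 to 3 reads at 1DAG carry exact 95% intervals, both covering counting error only. An exact permutation test of 3 libraries against 3 cannot give a two-sided p below 0.1. Nothing states that AtCKX1 replicates were separate cultures, so p-values measure the spread between libraries. No 2 libraries were identical (66 pairs). The method was tested on simulated data.

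The genes and lists were chosen with earlier results of these data known. Lists came from functional categories and descriptions of 1342 readable genes. The text names the transgene, the genes with primers, members of the cytokinin, auxin, ethylene, abscisic acid and cell death lists, up to 3 called members of other lists, list members with a called difference, and the genes with the widest changes. Primer sequences come from the supplementary primer list. None of the identifiers matched the RefSeq gene table, so no positions are given. Alternatives were DESeq2 1.42.0, other scalings, filters and limits, the replicate block, AtCKX1 libraries alone and each library left out. The DESeq2 fit of AtCKX1 alone was added after seeing the data.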

Additional observations from a re-analysis of the deposited data

Results flagged for a closer look

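The age effects of AtCKX1 and GP differed in 14 named genes by the test of the difference itself; values are log2 age effects in AtCKX1 minus those in GP, with edgeR's adjusted p. Groups of 3 libraries are too small to single out a library by its gap to the others. Of the listed genes, the clock gene MLOC_14118 had a difference of 1.78 (adjusted p = 0.0146), described above. The leucine-rich repeat receptor-like gene MLOC_73481 had 3.64, 5.25 and 4.61 CPM in AtCKX1 at 10DAG, against 1.18, 0.476 and 1.23 CPM in AtCKX1 at 1DAG, and 17.8, 25.7 and 10.9 CPM in GP at 10DAG, against 0.443, 0.46 and 0.479 CPM in GP at 1DAG. It rose in both lines, with a difference of -3.11 (adjusted p = 0.0311) that was called in 2 of 12 fits without 1 library. The MtN21-type transporter MLOC_61269 had 4.77, 5.57 and 5.6 CPM in AtCKX1 at 10DAG, against 9.08, 7.53 and 9.37 CPM in AtCKX1 at 1DAG, while GP had 22.3, 28.4 and 11.9 CPM at 10DAG, against 5.33, 5.08 and 7.13 CPM at 1DAG. Its difference was -2.58 (adjusted p = 0.0181) and was called in 8 of 12 such fits. For the cellulose synthase-like gene MLOC_74149 the difference was -2.66 (adjusted p = 0.0433), called in 1 of 12 such fits.

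The other 10 genes have no function in the sources used here. The widest positive differences were in MLOC_41838 (5.36, adjusted p = 0.0197), MLOC_72290 (4.98, adjusted p = 0.00245), MLOC_29257 (4.28, adjusted p = 0.00518), MLOC_44067 (3.89, adjusted p = 0.00518) and MLOC_56052 (3.33, adjusted p = 0.0259). In all 5, AtCKX1 10DAG replicate 2 was the highest of the AtCKX1 libraries: MLOC_72290 had 12.9, 29.9 and 17.1 CPM in AtCKX1 at 10DAG, against 10.6, 8.64 and 6.35 CPM in AtCKX1 at 1DAG, and 1.29, 0.935 and 0.816 CPM in GP at 10DAG, against 9.17, 13.7 and 19.5 CPM in GP at 1DAG. The widest negative differences were in MLOC_37446 (-4.48, adjusted p = 0.00758), MLOC_69385 (-4.23, adjusted p = 0.0259), MLOC_70279 (-4.09, adjusted p = 0.0225), MLOC_61919 (-3.58, adjusted p = 0.00241) and MLOC_52247 (-3.30, adjusted p = 0.00241). In each of these AtCKX1 10DAG replicate 2 was the lowest AtCKX1 library; MLOC_61919 had 8.86, 3.98 and 8.7 CPM in AtCKX1 at 10DAG, against 59.9, 72.4 and 75.4 CPM in AtCKX1 at 1DAG, and 71, 61.5 and 77.9 CPM in GP at 10DAG, against 48.1, 58.9 and 66.6 CPM in GP at 1DAG. The differences of MLOC_72290, MLOC_29257, MLOC_44067, MLOC_37446, MLOC_61919 and MLOC_52247 were called in all 12 fits without 1 library, and those of MLOC_41838, MLOC_56052, MLOC_69385 and MLOC_70279 in 6, 6, 6 and 7. Without GP 1DAG replicate 1 and GP 10DAG replicate 2, which stand apart, the calls of MLOC_73481 (-2.69, adjusted p = 0.0816), MLOC_74149 (-2.50, adjusted p = 0.108) and MLOC_70279 (-4.09, adjusted p = 0.0772) were lost and the other 11 were kept.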

How the results depend on the processing

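The counts of genes called between the AtCKX1 ages stayed within 1.5 times of 5664 under other scalings, filters, DESeq2, the AtCKX1 libraries alone, the replicate block (5552) and each library left out (5052 to 5951; higher 2728 to 3463, lower 2319 to 2640). No fold limit gave 10866 genes (5208 higher, 5658 lower) and glmTreat 2588 (1545 higher, 1043 lower), as their looser and stricter limits imply. The 98 genes with a difference of age effects (82 positive, 16 negative) became 9 under glmTreat (5 and 4), 47 under the replicate block (37 and 10), 293 under DESeq2 (213 and 80) and 34 to 123 without 1 library (27 to 109 positive, 7 to 39 negative); the cause was not tested. Same-numbered AtCKX1 libraries did not deviate together (correlations of -0.10, 0.07 and 0.06), so the numbers are not taken as pairs, and of the age effects of 170 named genes 5 calls were lost under the block. Of the 14 named differences, those of MLOC_73481, MLOC_61269, MLOC_74149, MLOC_56052 and MLOC_69385 were not called under it (adjusted p = 0.0894, 0.0577, 0.12, 0.0811 and 0.053). Estimates changed sign without 1 library in AT2G41510 (-0.66 to 0.82), MLOC_60446 (-0.41 to 0.55) and MLOC_44067 (-0.18 to 0.46), none of them called. The design leaves age, medium and segment length confounded, and transcripts with few reads have wide errors.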
